A study of Mus musculus with 12 samples.

Results

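Chemokine receptors are membrane proteins of leukocytes and some tissue cells, most of them coupled to G proteins, that read gradients of small secreted chemokines and direct cell migration. Each receptor answers to 1 or more ligands, and the set of receptors on a cell is characteristic of its type, so that inflammatory monocytes, patrolling monocytes and macrophages, neutrophils, activated lymphocytes and migrating dendritic cells differ in the receptors they carry. In healing wounds these receptors are known for bringing leukocytes from blood and marrow into the tissue. The 9 receptor genes followed here were *Ccr1*, *Ccr2*, *Ccr7*, *Cx3cr1*, *Cxcr2*, *Cxcr3*, *Cxcr4*, *Cxcr6* and *Ccrl2*, a set drawn up with earlier results of these data known and looked up by gene symbol among the 18996 genes of the count table. All 9 were in the table, and all 9 passed the filter on low counts.

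RNA of 12 BALB/c mice was sequenced in bulk, 4 mice in each of 3 groups, a week after surgery where there was any. No operation mice had no surgery and gave soft tissue from beside the spine. In SHAM mice the soft tissue beside the spine was removed with the lamina left in place, and in Laminectomy mice the lamina was cut away as well. From both of these groups soft tissue was collected along with scar, so that surgery and the kind of tissue sampled cannot be told apart in a comparison with No operation mice. The study's methods give fewer mice per group without naming them, and all 4 were used.

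After surgery 7 of the 9 receptors were higher than in No operation mice, in SHAM and in Laminectomy mice alike, and those 7 were the same genes, *Ccr1*, *Ccr2*, *Ccr7*, *Cx3cr1*, *Cxcr3*, *Cxcr4* and *Cxcr6*. Their fold changes ran from 3.15 to 7.64 in SHAM mice and from 2.22 to 8.29 in Laminectomy mice. *Cxcr2*, the neutrophil receptor, and *Ccrl2*, an atypical receptor, did not pass the test in either comparison. None of the 9 passed it between Laminectomy and SHAM mice. A gene was called at an adjusted p below 0.05 (edgeR's quasi-likelihood test over all genes, Benjamini-Hochberg adjustment) and a log2 fold change beyond 0.5. In bulk tissue, more cells of a type and more RNA per cell cannot be told apart.

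Changes after surgery were widespread. Of 14765 genes tested, 25.7% were called higher and 25.1% lower in SHAM than in No operation mice, and 24.2% higher and 24.4% lower in Laminectomy mice. Against these shares, 7 of 9 receptors were called higher and none lower. The median log2 fold change of the receptors was 2.15 for SHAM and 1.83 for Laminectomy mice, where the median over all genes was 0.00 and 0.01. Both comparisons use the same 4 No operation mice, so they do not bear on each other as separate evidence.

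The libraries held between 16802988 and 18077863 counts, and the 9 receptors together between 579 and 9622 counts per mouse. The summed level of 5 skeletal muscle genes was between 63120 and 95612 CPM (counts scaled to a library of fixed size) in No operation mice, between 1354 and 6386 CPM in the SHAM group and between 2246 and 9453 CPM in the Laminectomy group. That of 5 genes carried by all leukocytes was 149 to 714, 1412 to 2342 and 1134 to 1747 CPM. Muscle RNA was thus lower and leukocyte RNA higher in every mouse after surgery than in any No operation mouse. What part of the receptor changes went with this change of tissue was not tested, beyond the ratios to *Ptprc* given further on.

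**Figure D1:**
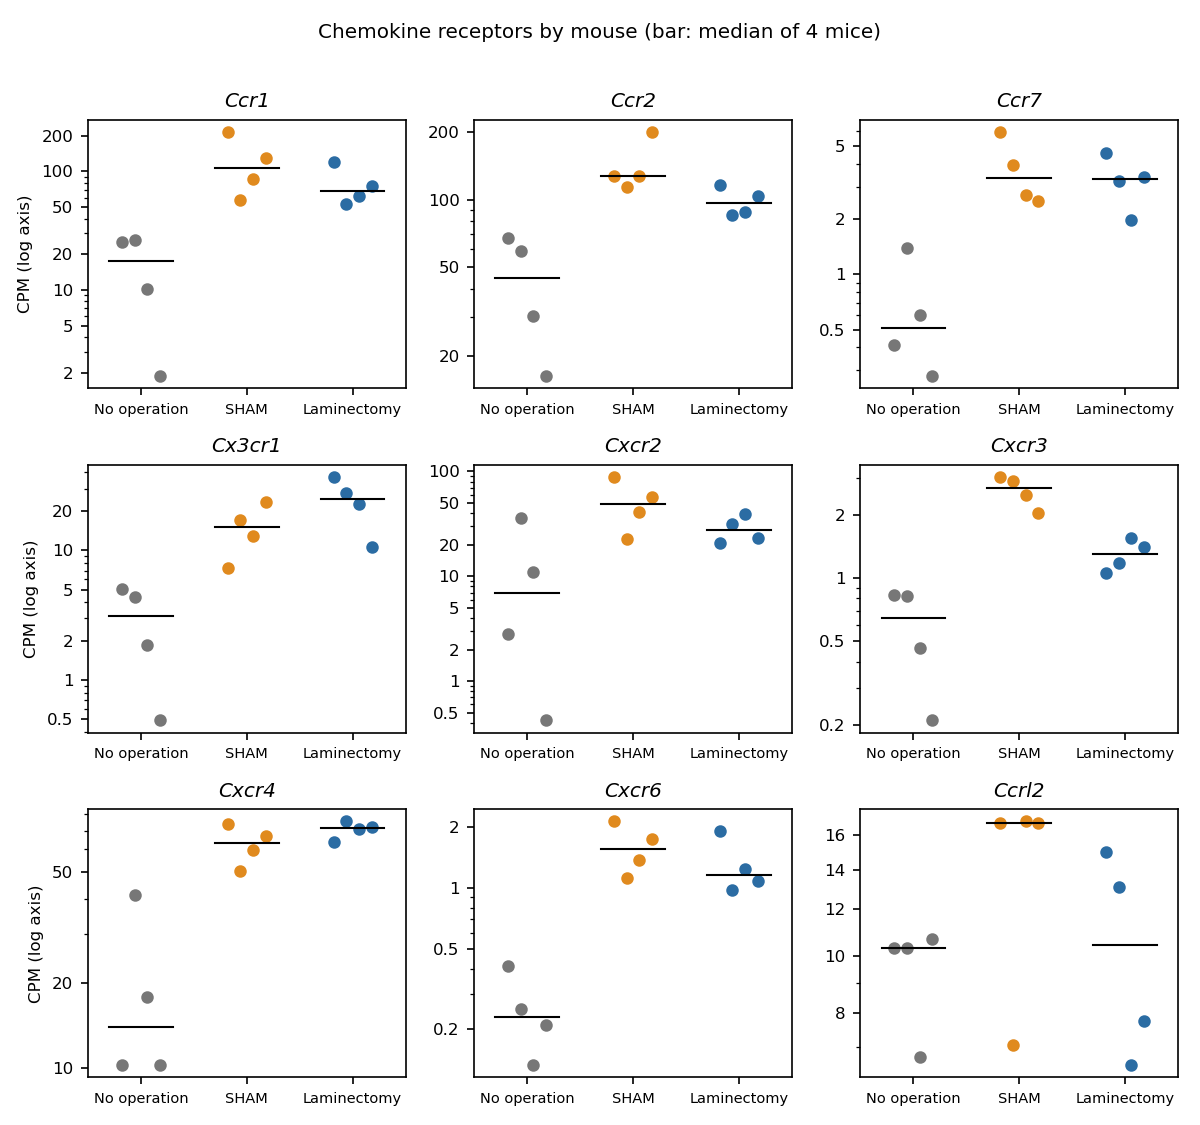
Level of each chemokine receptor in every mouse, in CPM on a log axis, with a bar at the median of each group of 4 mice (No operation, SHAM, Laminectomy). For 7 receptors every mouse after surgery lies above every No operation mouse, while *Cxcr2* and *Ccrl2* overlap, *Cxcr2* because No operation mouse 2 is at 36.0 CPM.

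*Ccr1*, a receptor of monocytes, macrophages and neutrophils for inflammatory CC chemokines (identifier 12768, GRCm38 chr9:123962124-123968692, minus strand), stood at 25.2, 26.4, 10.1 and 1.89 CPM in No operation mice 1 to 4. In SHAM mice 1 to 4 it was at 215, 57.4, 85.4 and 130 CPM. In Laminectomy mice 1 to 4 it was at 121, 52.7, 62.1 and 75.1 CPM. No mouse after surgery reached down to the No operation range, and SHAM mouse 1 and Laminectomy mouse 1 were the highest of their groups. The log2 fold change was 2.93 ± 0.663 (SE) in SHAM (adjusted p = 0.00252, edgeR) and 2.28 ± 0.648 in Laminectomy mice (adjusted p = 0.00993, edgeR).

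*Ccr2*, the receptor through which inflammatory monocytes leave the marrow and enter tissue in response to CCL2 (identifier 12772, chr9:124101950-124113557, plus strand), had the highest CPM of the 9 genes in No operation mice, at 67.5, 59.1, 30.3 and 16.3 CPM. It was at 128, 114, 128 and 201 CPM in the SHAM group. Laminectomy mice had 116, 85.2, 88.3 and 104 CPM. Every mouse after surgery was above the No operation mice, by smaller folds than for *Ccr1*. SHAM mice differed from No operation mice by 1.72 ± 0.37 on the log2 scale (adjusted p = 0.00184, edgeR) and Laminectomy mice by 1.18 ± 0.366 (adjusted p = 0.0154, edgeR). Of the 50-base words in *Ccr2* exons, 1.91% also occur in transcripts of other genes, so a few reads may be shared.

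*Cx3cr1*, the fractalkine receptor of patrolling monocytes, tissue macrophages and microglia (identifier 13051, chr9:119901616-120069879, minus strand), was at 5.03, 4.35, 1.86 and 0.491 CPM in the No operation group. SHAM mice had 7.31, 17.2, 12.9 and 23.8 CPM. Laminectomy mice had 37.0, 27.6, 22.6 and 10.7 CPM. SHAM mouse 1, the mouse with the most *Ccr1*, had the least *Cx3cr1* of the mice after surgery. On the log2 scale the difference from No operation mice was 2.38 ± 0.595 in SHAM (adjusted p = 0.0047, edgeR) and 3.05 ± 0.605 in Laminectomy mice (adjusted p = 0.00121, edgeR), the largest fold of the 9 receptors in Laminectomy mice. An antisense gene that is not among the genes of the table shares 78 exon bases with *Cx3cr1*, and 1.06% of the 50-base words in its exons also occur in transcripts of other genes.

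Most markers of the monocyte and macrophage line moved with these 3 receptors. The sum of 7 such genes was 478 to 1345 CPM in No operation, 3626 to 6468 CPM in SHAM and 2823 to 5014 CPM in the Laminectomy group, and 6 of the 7 were called higher in each comparison with No operation mice. Most of the sum was *Lyz2*, a lysozyme gene that neutrophils also express, in every mouse. The gene that was not called was *Ly6c2*, a marker of inflammatory monocytes (log2 fold change 0.11 and 0.63), which was at 1.52, 43.3, 19.8 and 0.561 CPM in the No operation group, at 9.96 to 28.0 CPM in SHAM and at 9.96 to 42.9 CPM in the Laminectomy group. Of 6 genes typical of macrophages resident in tissue, 3 were called higher and 2 lower in SHAM mice, and none higher and 2 lower in Laminectomy mice. Of 5 microglia genes, 2 were called higher in SHAM and 3 in Laminectomy mice, and none lower. Their log2 fold changes ran from -1.12 to 1.35 in SHAM and from -0.27 to 2.67 in Laminectomy mice. Between Laminectomy and SHAM mice they reached 3.79, and DESeq2 called 1 of the 5 higher while edgeR called none. For comparison, 25.7% of all genes tested were called higher and 25.1% lower in SHAM mice, and 24.2% and 24.4% in Laminectomy mice. The resident macrophage and microglia lists hold few genes to set beside these shares.

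*Cxcr2*, the neutrophil receptor for CXCL1, CXCL2 and CXCL5 (identifier 12765, chr1:74153989-74161246, plus strand), was spread over 85.5-fold among No operation mice, at 2.83, 36.0, 11.1 and 0.421 CPM. SHAM mice had 89.2, 22.9, 41.0 and 56.9 CPM. Laminectomy mice had 20.8, 31.5, 39.7 and 23.2 CPM. No operation mouse 2 lay among the mice after surgery, and the other No operation mice lay below all of them. The log2 fold change was 2.05 ± 0.856 in SHAM (adjusted p = 0.0549, edgeR) and 1.19 ± 0.841 in Laminectomy mice (adjusted p = 0.242, edgeR). Without No operation mouse 2 it was 3.44 (adjusted p = 0.00339, edgeR) and 2.58 (adjusted p = 0.0142, edgeR). Without SHAM mouse 2 the first of these comparisons gave 2.31 (adjusted p = 0.049, edgeR). Of the 50-base words in *Cxcr2* exons, 6.68% also occur in transcripts of other genes, the highest share of the 9 receptors, so some of its reads may be shared.

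*Cxcr4*, the CXCL12 receptor that holds blood-forming cells and young neutrophils in the marrow and is carried by many leukocytes (identifier 12767, chr1:128588199-128592293, minus strand), was at 10.2, 41.3, 17.8 and 10.2 CPM in the No operation group. SHAM mice had 74.1, 50.3, 59.7 and 67.0 CPM. Laminectomy mice lay close together at 63.6, 75.5, 71.2 and 72.0 CPM. As for *Cxcr2*, No operation mouse 2 was the highest of its group and mouse 3 came next, here without reaching the mice after surgery. SHAM mice differed from No operation mice by 1.66 ± 0.379 on the log2 scale (adjusted p = 0.00271, edgeR) and Laminectomy mice by 1.83 ± 0.38 (adjusted p = 0.00164, edgeR). Without mouse 2 the differences were 2.30 and 2.47, and without both mice, its highest controls, 2.63 and 2.81.

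Transcripts of marrow granulocytes marked the same No operation mice. The sum of 7 genes of granulocyte precursors, among them *Mpo* and *Elane*, was 24.1, 3013, 1085 and 22.2 CPM in No operation mice 1 to 4, 5, 65.7, 163 and 618 CPM in the SHAM group and 270, 1385, 2087 and 319 CPM in the Laminectomy group. *Mpo*, the granule enzyme myeloperoxidase, was at 0.896, 356, 116 and 2.10 CPM in the No operation group. The sum of 6 neutrophil genes was 60.5, 1751, 707 and 14.2 CPM in the No operation group, with 389 to 1084 CPM in SHAM and 433 to 1769 CPM in the Laminectomy group. In both sums No operation mice 2 and 3 thus lay among or above the mice after surgery. Most of the neutrophil sum was *S100a8* and *S100a9* in every mouse. *Csf3r*, the receptor of the granulocyte growth factor G-CSF and one of the 6 genes, was at 20.6, 81.0, 33.9 and 2.24 CPM in the No operation group, below all SHAM (148 to 294 CPM) and all Laminectomy mice (101 to 115 CPM). Of the 6 neutrophil genes edgeR called *Csf3r* alone higher in SHAM mice and none in Laminectomy mice, where 1 was at an unadjusted p below 0.05 and DESeq2 called 1. None of the precursor genes was called by edgeR or DESeq2 in any comparison, and none had an unadjusted p below 0.05 in edgeR. With both mice left out, an alternative added after the values were seen, *Cxcr2* was called in both comparisons (log2 fold change 5.01 and 4.15, adjusted p = 0.0007 and 0.00174, edgeR), and 8 of 9 receptors were higher in each, against 25.1% and 24.2% of all genes in that fit (23.1% and 22.9% lower). These are also the No operation mice with the highest *Cxcr2*, so that leaving them out had to raise its fold, and the call is no separate evidence. The part of marrow RNA in the level of *Cxcr2* and *Cxcr4* was not tested further.

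**Figure D2:**
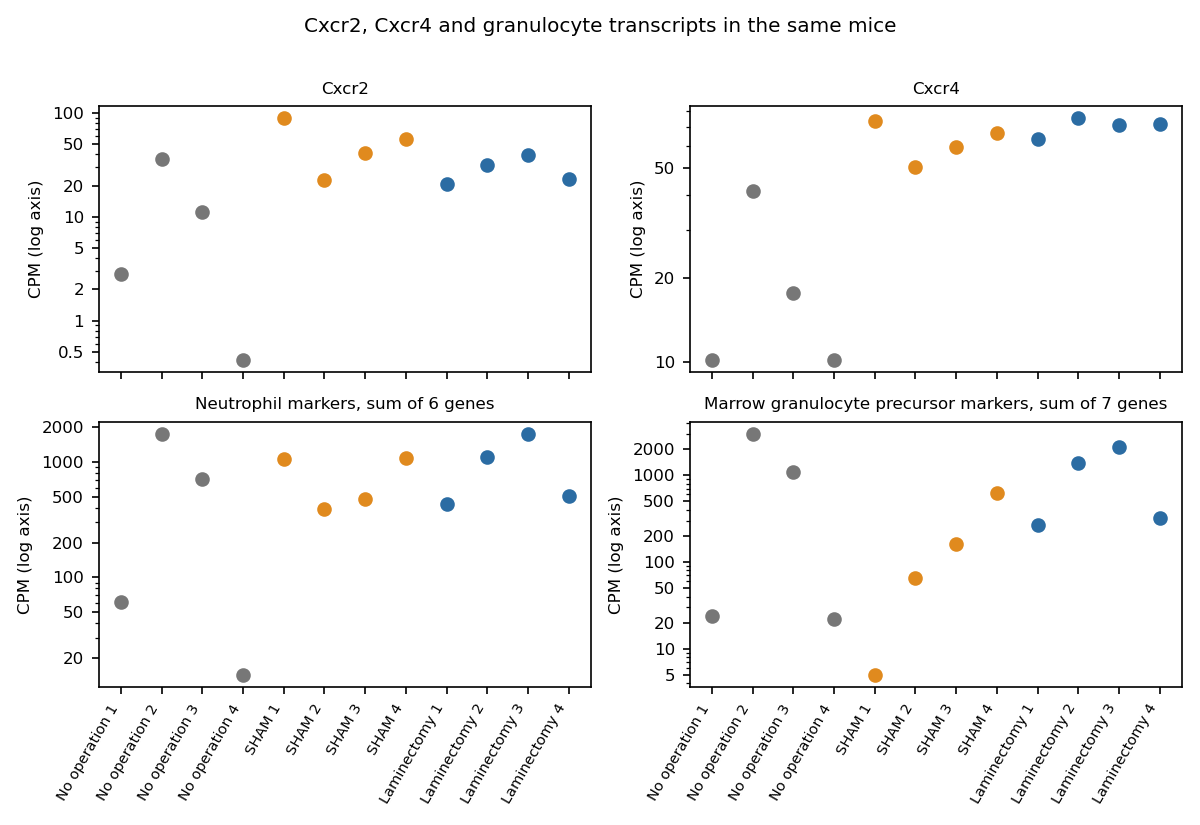
*Cxcr2*, *Cxcr4*, the summed neutrophil markers and the summed marrow granulocyte precursor markers in each of the 12 mice, in CPM on log axes, coloured by group. No operation mice 2 and 3 are the highest of their group in all 4 panels, and SHAM mouse 1 joins the highest *Cxcr2*, at 89.2 CPM, with the lowest precursor sum, at 5 CPM.

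*Cxcr3*, the receptor of activated T cells and NK cells for CXCL9 and CXCL10 (identifier 12766, chrX:101731535-101734269, minus strand), was low throughout, with 3 to 54 counts per mouse. Its levels were 0.827, 0.819, 0.466 and 0.210 CPM in the No operation group. SHAM mice had 3.03, 2.89, 2.49 and 2.03 CPM. Laminectomy mice had 1.06, 1.18, 1.55 and 1.41 CPM, below every SHAM and above every No operation mouse. On the log2 scale the difference from No operation mice was 2.15 ± 0.362 in SHAM (adjusted p = 0.000365, edgeR) and 1.15 ± 0.363 in Laminectomy mice (adjusted p = 0.0172, edgeR). Without No operation mouse 3 the second of these was 1.06 (adjusted p = 0.0502, edgeR).

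*Cxcr6*, the CXCL16 receptor of tissue-homing T cells, NK cells and NKT cells (identifier 80901, chr9:123806475-123811760, plus strand), had only 2 to 38 counts per mouse. It was at 0.414, 0.252, 0.133 and 0.210 CPM in the No operation group. SHAM mice had 2.14, 1.12, 1.38 and 1.76 CPM. Laminectomy mice had 1.91, 0.977, 1.24 and 1.09 CPM, and every mouse after surgery was above all No operation mice. The log2 fold change was 2.63 ± 0.391 in SHAM (adjusted p = 0.000154, edgeR) and 2.34 ± 0.392 in Laminectomy mice (adjusted p = 0.000404, edgeR).

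*Ccr7*, which guides dendritic cells and naive lymphocytes to lymph nodes (identifier 12775, chr11:99144196-99155077, minus strand), was at 0.414, 1.39, 0.599 and 0.280 CPM in the No operation group. SHAM mice had 5.96, 3.96, 2.70 and 2.51 CPM. Laminectomy mice had 4.55, 3.24, 1.97 and 3.39 CPM. The groups after surgery overlapped each other and lay above the No operation mice. SHAM mice differed from No operation mice by 2.47 ± 0.485 on the log2 scale (adjusted p = 0.00102, edgeR) and Laminectomy mice by 2.27 ± 0.484 (adjusted p = 0.00188, edgeR). Without No operation mouse 2, the highest of its group, these were 3.11 and 2.90.

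Of the cells that usually carry *Cxcr3*, *Cxcr6* and *Ccr7*, T cells and NK cells had markers of low level as well. The sum of 7 T cell genes was 1.47 to 6.68 CPM in No operation, 15.6 to 23.2 CPM in SHAM and 13.5 to 26.6 CPM in the Laminectomy group, and in every mouse after surgery most of it was *Cd4*, which monocytes and macrophages can also express. *Cd3e*, which defines T cells, was between 0.0701 and 0.252 CPM in No operation, between 0.318 and 0.562 CPM in SHAM and between 0.360 and 0.688 CPM in the Laminectomy group. The sum of 5 NK cell genes was 0.561 to 2.58, 5.02 to 15.5 and 3.12 to 8.60 CPM in these groups, and that of 8 dendritic cell genes 63.1 to 105, 246 to 314 and 234 to 335 CPM. All 3 sums were higher in every mouse after surgery than in any No operation mouse. Most of the dendritic cell sum after surgery was *Fscn1*, at 20.4 to 44.8 CPM in No operation, 151 to 181 CPM in SHAM and 129 to 203 CPM in the Laminectomy group, a gene of mature dendritic cells that other cells also express. *Clec9a*, which marks the dendritic cells that cross-present antigen, was at 2.69 to 4.66, 1.87 to 2.67 and 0.847 to 3.75 CPM, and *Zbtb46*, a transcription factor of dendritic cells, at 16.9 to 26.8, 11.6 to 17.9 and 11.3 to 17.7 CPM, so the genes of this list did not move one way. Over all genes tested, 25.7% were called higher and 25.1% lower in SHAM mice, and 24.2% and 24.4% in Laminectomy mice. Of the T cell genes tested, 3 of 4 were called higher in each comparison, of the NK cell genes 5 of 5 in SHAM and 3 of 5 in Laminectomy mice, and of the dendritic cell genes 4 of 7 in each, with 2 lower in Laminectomy mice. Their part in the receptor changes was not tested.

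*Ccrl2*, which binds the chemoattractant chemerin and presents it to other cells without signalling itself (identifier 54199, chr9:111054486-111057519, minus strand), had from 101 to 320 counts per mouse, the smallest ratio of highest to lowest among the 9 receptors. No operation mice had 10.3, 10.3, 6.73 and 10.7 CPM. SHAM mice had 16.8, 7.06, 16.9 and 16.8 CPM, so that 3 were above all No operation mice and mouse 2 was within their range. Laminectomy mice had 15.0, 13.1, 6.53 and 7.77 CPM, on both sides of the No operation mice. On the log2 scale the difference from No operation mice was 0.60 ± 0.325 in SHAM (95% confidence interval -0.11 to 1.32, adjusted p = 0.126, edgeR) and 0.16 ± 0.325 in Laminectomy mice (-0.55 to 0.87, adjusted p = 0.696, edgeR). Without SHAM mouse 2 the first was 0.83 and was called (adjusted p = 0.0245, edgeR).

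**Figure D3:**
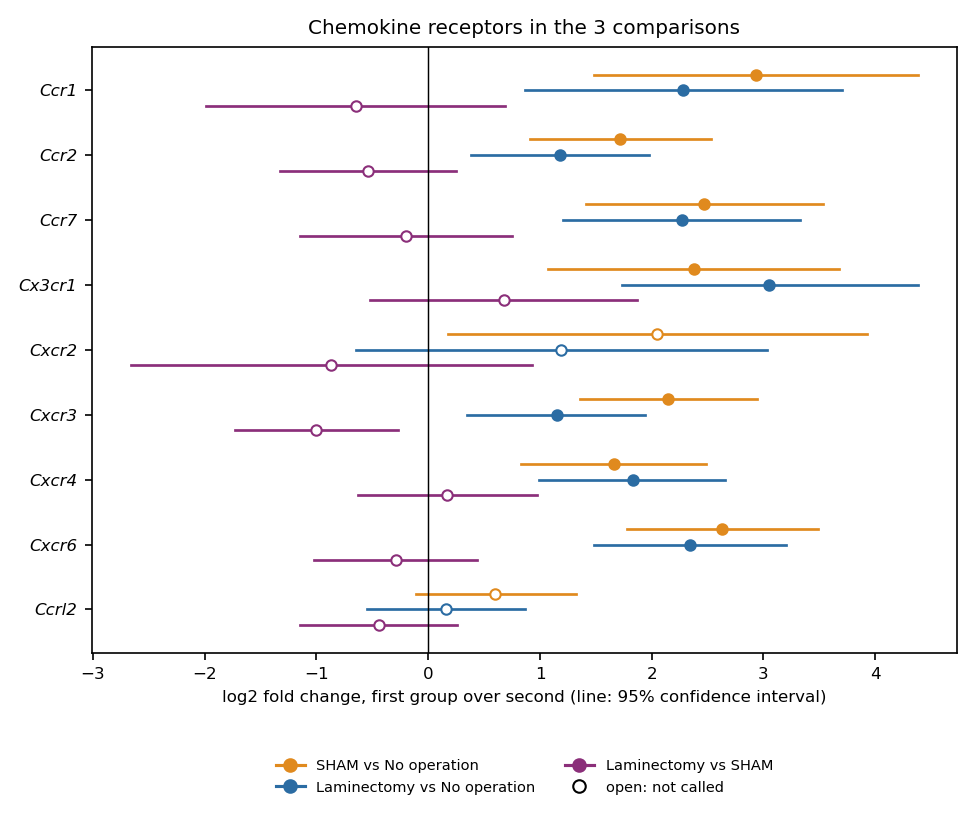
Log2 fold change of each receptor in the 3 comparisons with its 95% confidence interval, filled where called and open where not. The points of 7 receptors are filled in both comparisons with No operation mice, from 1.15 for *Cxcr3* to 3.05 for *Cx3cr1*, and all points between Laminectomy and SHAM mice are open.

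Seen mouse by mouse, 7 of the 9 receptors were higher in all SHAM than in all No operation mice, where 26.7% of all genes tested were. The same 7 were higher in all Laminectomy than in all No operation mice, against 27% of all genes. By two-sided exact permutation of log2 CPM, with 4 mice against 4, each of these 7 had p = 0.0286 in both comparisons, the smallest that this number of mice allows. For *Cxcr2* the exact p was 0.0571 in SHAM and 0.114 in Laminectomy mice, and for *Ccrl2* it was 0.114 and 0.8.

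The promoters of 3 receptors are shown because they stand for different outcomes, *Cxcr4* and *Ccr1* called higher after surgery and *Ccrl2* not. Each is the 250 bases before the RefSeq start of the gene on build GRCm38.p6, read on the gene's own minus strand, and motif letters on either strand are in capitals.

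*Cxcr4*, chr1:128592300-128592549: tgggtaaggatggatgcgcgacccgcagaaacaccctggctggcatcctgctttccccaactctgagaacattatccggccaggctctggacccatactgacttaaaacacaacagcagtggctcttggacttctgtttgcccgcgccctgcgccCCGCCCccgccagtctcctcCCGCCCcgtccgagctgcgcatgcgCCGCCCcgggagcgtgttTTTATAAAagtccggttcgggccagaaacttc

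*Ccr1*, chr9:123968693-123968942: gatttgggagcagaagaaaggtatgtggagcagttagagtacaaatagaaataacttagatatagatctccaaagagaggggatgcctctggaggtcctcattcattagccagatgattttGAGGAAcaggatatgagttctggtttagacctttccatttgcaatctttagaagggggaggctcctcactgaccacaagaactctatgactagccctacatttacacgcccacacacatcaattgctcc

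*Ccrl2*, chr9:111057519-111057768: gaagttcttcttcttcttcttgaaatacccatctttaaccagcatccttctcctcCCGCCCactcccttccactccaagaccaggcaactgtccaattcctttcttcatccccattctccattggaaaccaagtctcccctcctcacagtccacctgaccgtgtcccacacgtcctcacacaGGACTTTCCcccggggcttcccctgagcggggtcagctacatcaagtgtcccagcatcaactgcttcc

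The 4 letter strings searched on both strands were GGGCGG (the GC box), TATAAA (the TATA box), GAGGAA (the core of PU.1 sites) and GGACTTTCC (a kappaB-type string). The *Cxcr4* window held 3 GC boxes and TATAAA on both strands in overlapping positions, with 19 CpG dinucleotides against a median of 6 over all windows. The *Ccr1* window held 1 GAGGAA and 1 CpG. The *Ccrl2* window, taken at the outermost of its 3 listed starts, held 1 GC box and 1 GGACTTTCC. Of 32851 promoter windows of this length, 32.7% held a GC box, 12.4% TATAAA, 23.3% GAGGAA and 0.283% GGACTTTCC. GAGGAA was also in the windows of *Cxcr2* and *Cxcr3*, and those of *Cx3cr1*, *Cxcr6* and *Ccr2* held none of the 4 strings. By the GENCODE annotation 250 of the 250 bases of the *Cx3cr1* window, 233 of the *Ccr2* window and 122 of the *Cxcr3* window lie in an exon of the same gene, so these windows are not sequence ahead of every annotated start. RefSeq windows were at hand for 8 of the 9 receptors, all but *Ccr7*. These matches describe letters and were not related to any measurement of binding.

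Between Laminectomy and SHAM mice, no gene of the 14765 tested was called by edgeR (0%), with 2359 at an unadjusted p below 0.05, while DESeq2 called 4.35% of the genes it tested. Among the receptors 7 had a negative and 2 a positive log2 fold change, with a median of -0.44. The clearest difference was in *Cxcr3*, lower in all Laminectomy than in all SHAM mice, as 10.1% of all genes did not overlap in either direction. Its log2 fold change of -1.0 ± 0.336 was not called by edgeR (unadjusted p = 0.0119, adjusted p = 0.191) and was called by DESeq2 (adjusted p = 0.0392), and the exact permutation p was 0.0286. *Cxcr3* was the only receptor with an unadjusted p below 0.05 by edgeR and the only one called by DESeq2 here.

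For the other 8 receptors the mice of the groups overlapped. *Cx3cr1* had the largest positive estimate, 0.68 with a 95% confidence interval of -0.52 to 1.87, and *Cxcr4* lay at 0.17 with an interval of -0.63 to 0.97. *Cxcr2* had the widest interval, -2.66 to 0.93 around -0.87. For *Ccr1* (-1.99 to 0.69), *Ccr2* (-1.33 to 0.25), *Ccr7* (-1.15 to 0.75), *Cxcr6* (-1.02 to 0.44) and *Ccrl2* (-1.15 to 0.26) the intervals held 0 as well. Each of these 5 intervals leaves room for a level lower by more than 1 on the log2 scale in Laminectomy mice.

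*Ptprc* encodes CD45, which all leukocytes carry, and setting each receptor beside it in the same library gives its level per unit of leukocyte RNA. *Ptprc* was at 67.1, 113, 57.8 and 22.4 CPM in the No operation group, 205 to 327 CPM in SHAM and 176 to 238 CPM in the Laminectomy group. Ratios are given as receptor CPM per 100 CPM of *Ptprc*, as a description with no test. Because *Ptprc* itself differed so much, 77.6% of all genes did not overlap in this ratio between SHAM and No operation mice and 72.7% between Laminectomy and No operation mice.

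On this scale the separation of the 7 receptors was gone, and *Ccrl2* became the only one whose mice did not overlap. *Ccrl2* was at 15.3, 9.08, 11.6 and 47.5 per 100 in No operation mice, 5.13, 3.07, 8.26 and 6.09 in SHAM mice and 6.30, 7.44, 3.16 and 3.96 in Laminectomy mice. Its mean log2 ratio was lower by 1.65 in SHAM and by 1.76 in Laminectomy mice.

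The ratio of *Ccr2*, in contrast, overlapped between the groups and lay below the level of *Ptprc* in all mice but No operation mouse 1. It was at 101, 52.3, 52.4 and 72.5 per 100 in No operation mice, 39.0, 49.6, 62.5 and 72.9 in SHAM mice and 48.8, 48.5, 42.7 and 52.9 in Laminectomy mice. Its mean log2 ratio differed by -0.30 in SHAM and -0.48 in Laminectomy mice, so its higher CPM after surgery was matched or exceeded by that of *Ptprc*. *Cxcr3* (0.15 and -0.52), *Cxcr4* (-0.29 and 0.23), *Ccr7* (0.48 and 0.64) and *Cxcr6* (0.55 and 0.58) also overlapped between the groups.

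The largest positive difference was that of *Ccr1* in SHAM mice and that of *Cx3cr1* in Laminectomy mice. *Ccr1* was at 37.6, 23.4, 17.5 and 8.44 per 100 in No operation mice, 65.6, 24.9, 41.6 and 47.1 in SHAM mice and 50.8, 30.0, 30.1 and 38.2 in Laminectomy mice, a difference of 1.16 and 0.94 in mean log2 ratio, with No operation mouse 1 inside the range after surgery. *Cx3cr1* was at 7.5, 3.84, 3.23 and 2.19 per 100 in No operation mice, 2.23, 7.48, 6.27 and 8.62 in SHAM mice and 15.5, 15.7, 10.9 and 5.44 in Laminectomy mice. Its difference was 0.54 in SHAM and 1.54 in Laminectomy mice. Laminectomy mice 1 to 3 were above all other mice, and mouse 4 was among the rest. *Cxcr2* differed by 1.13 and 0.72 with the widest spread, 1.87 to 31.8 per 100 within the No operation mice.

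Between Laminectomy and SHAM mice none of the 9 ratios was free of overlap, while 11.6% of all genes were. The mean log2 ratio was higher in Laminectomy mice by 1.00 for *Cx3cr1* and 0.51 for *Cxcr4*, and differed by -0.67 for *Cxcr3*. With the mean of 5 leukocyte genes in place of *Ptprc*, the differences of these 3 were 1.10, 0.61 and -0.57.

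**Figure D4:**
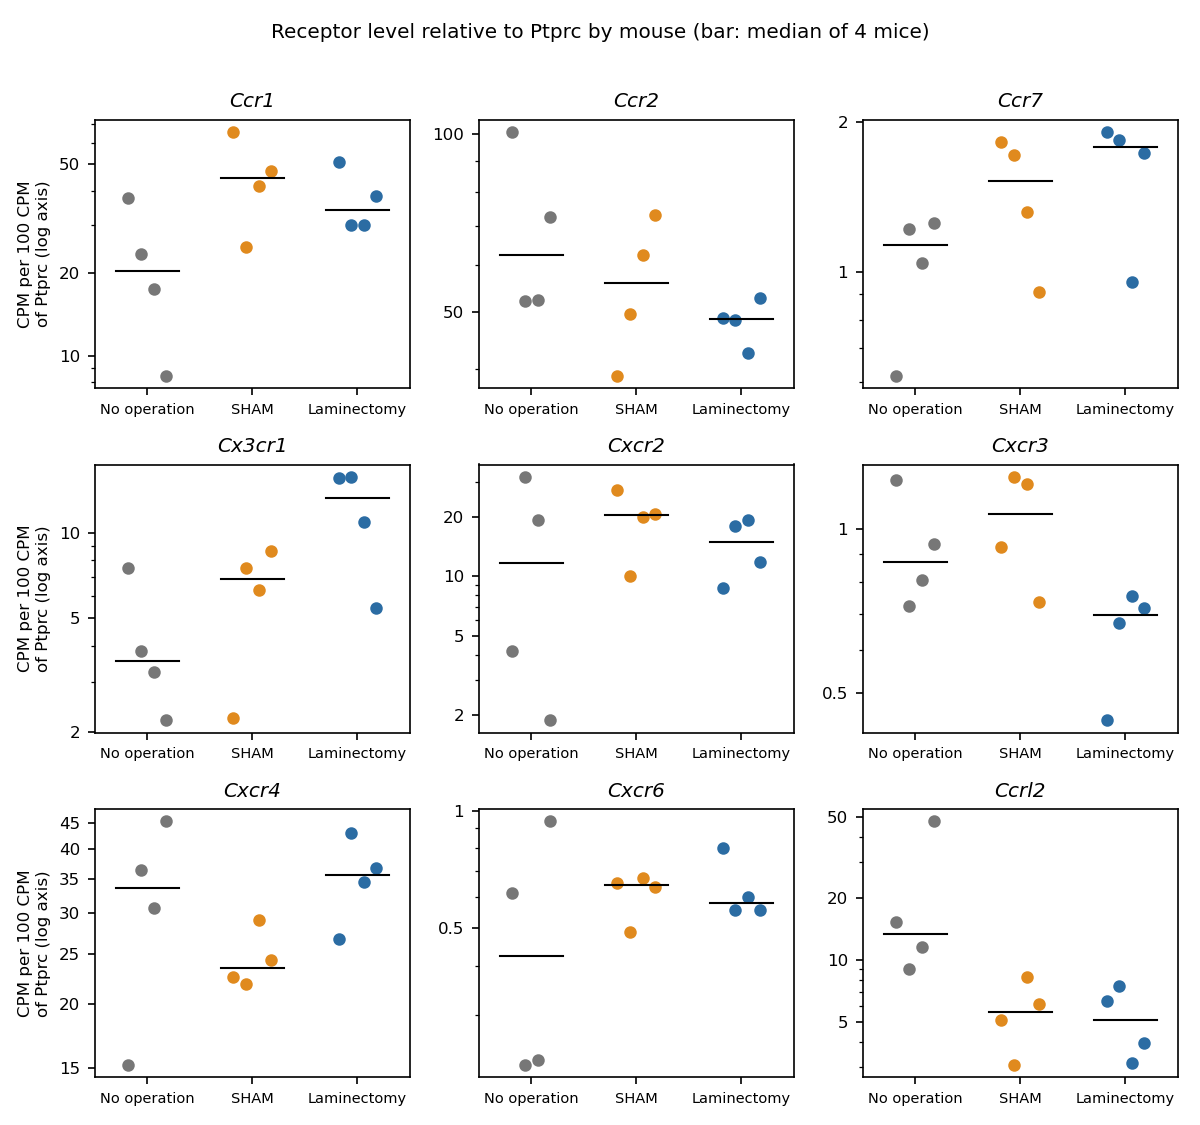
Receptor level per 100 CPM of *Ptprc* in every mouse, on log axes, with a bar at the median of each group of 4 mice. Only *Ccrl2* separates the No operation mice, at 9.08 to 47.5, from the mice after surgery, at 3.07 to 8.26.

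Levels of different genes compare only per length, so CPM per kilobase of exon was used to order the receptors within each group. In No operation mice the medians ran from 7.74 for *Cxcr4* over *Ccr2* (6.62), *Ccr1* (6.24), *Ccrl2* (3.95), *Cxcr2* (2.29), *Cx3cr1* (0.689), *Cxcr3* (0.371) and *Ccr7* (0.256) to 0.120 for *Cxcr6*. No neighbours in this order differed beyond the spread of the mice.

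In SHAM mice *Ccr1* came first with a median of 38.0 CPM per kilobase, followed by *Cxcr4* (35.0), *Ccr2* (18.9) and *Cxcr2* (16.1), which overlapped from neighbour to neighbour. A gap without overlap parted *Cxcr2* from *Ccrl2* (6.47), which was followed by *Cx3cr1* (3.34), *Ccr7* (1.68) and *Cxcr3* (1.55), and *Cxcr6* (0.813) lay below all mice of *Cxcr3*.

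In Laminectomy mice *Cxcr4* led with 39.6 CPM per kilobase before *Ccr1* (24.2), and these overlapped. *Ccr2* (14.2) lay below both and began an overlapping run with *Cxcr2* (8.97), *Cx3cr1* (5.57) and *Ccrl2* (4.01). *Ccr7* (1.68) was apart from its neighbours on both sides, and *Cxcr3* (0.748) and *Cxcr6* (0.605) closed the order with overlap. *Cx3cr1* thus stood before *Ccrl2* there and after it in the other groups. Taking the longest transcript as the length exchanged *Ccr2* and *Cxcr4* in No operation mice, left the order in the other groups, and moved the gap after *Ccr1* in Laminectomy mice to after *Ccr2*.

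Some receptors also varied together among the mice, in values pooled over the groups. With the group means taken off log2 CPM, Pearson's r over the 12 mice was 0.89 for *Cxcr2* with *Cxcr4*, 0.88 for *Ccr1* with *Ccr2* and 0.82 for *Ccr2* with *Cx3cr1*. All receptors in these pairs spread most widely in No operation mice, which thus weigh most in r. For *Cxcr2* the log2 range was 6.42 there, 1.96 in SHAM and 0.94 in Laminectomy mice. Laminectomy mouse 4 had the lowest *Cx3cr1* of its group, at 10.7 CPM, but more *Ccr2* (104 CPM) than mice 2 and 3. No r was taken within single groups. *Ccrl2* had no r above 0.26 with any receptor other than *Cxcr6*, where it was 0.58 at few counts. These values describe mice that share the tissue differences given above, and no p is given.

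Against the summed markers in the same way, *Cxcr2* and *Cxcr4* went with neutrophil genes (r = 0.97 and 0.88) and *Ccr1* with monocyte and macrophage genes (r = 0.91). The sum of granulocyte precursor genes had r = 0.62 with *Cxcr2* and 0.64 with *Cxcr4*. Among all genes tested, those most like *Cxcr2* included *Il18rap* (r = 0.98) and *Trpm2* (0.98). Those most like *Cxcr4* were *Tmem131l* (0.97), *Dcp2* (0.95) and *Ifnlr1* (0.94).

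*Ccr1* was closest to *Tarm1* (0.99), *Gm15448* (0.98) and *Etv6* (0.98), and *Ccr2* to *Cd244a* (0.97), *Hgf* (0.96), which encodes hepatocyte growth factor, and *Pmaip1* (0.94). For *Cx3cr1* they were *Gpr183* (0.95), a receptor for oxysterols, *Cd180* (0.94) and *Slfn9* (0.93). Genes near *Ccr7* included *Tor1a* (0.93) and *Runx3* (0.92), and *Cxcr3* was nearest to *Sfrp2* (0.93), *Carhsp1* (0.91) and *Smim24* (0.91). At the low end, *Cxcr6* was nearest to *Msantd3* (0.97), *Eloa* (0.94) and *Tes* (0.94), and *Ccrl2* to *Ywhag* (0.92), *Tmem39b* (0.91) and *Ints14* (0.88).

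The ligands of the receptors had larger median changes than the receptors. Of all genes tested, 25.7% were called higher and 25.1% lower in SHAM mice, and 24.2% and 24.4% in Laminectomy mice. Of 22 ligand genes, 19 were called higher and 1 lower in SHAM mice (median log2 fold change 3.25), and 15 higher and 1 lower in Laminectomy mice (median 2.52). *Cxcl5*, a CXCR2 ligand that attracts neutrophils, had the largest change, at 8.61, 0.252, 0.133 and 0 CPM in the No operation group, 458, 207, 118 and 196 CPM in the SHAM group and 121, 45.4, 41.0 and 147 CPM in the Laminectomy group. The other CXCR2 ligands *Cxcl1*, *Cxcl2* and *Cxcl3* rose by 4.52, 5.78 and 6.18 on the log2 scale in SHAM and by 3.52, 3.85 and 3.77 in Laminectomy mice. *Ppbp*, the platelet ligand of CXCR2, did not pass the test (0.78 and 0.26).

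Most ligands of CCR1 and CCR2 were called higher beside their receptors. *Ccl3* and *Ccl4* rose by 5.87 and 5.59 on the log2 scale in SHAM and by 4.36 and 4.44 in Laminectomy mice, and the CCR2 ligands *Ccl2*, *Ccl7* and *Ccl12* by 3.31, 4.00 and 3.86 in SHAM and by 2.41, 3.12 and 2.98 in Laminectomy mice. No operation mouse 1 was far above its group in *Ccl2* (30.3 CPM, the others at most 3.33) and *Ccl7* (22.9 CPM, the others at most 2.46). In *Ccl2* that mouse overlapped the Laminectomy group, whose lowest mouse was at 30.1 CPM (exact permutation p = 0.0571). DESeq2 gave no adjusted p for *Ccl7*. *Ccl6* and *Ccl8* were called in SHAM mice alone (2.29 and 3.54, against 0.98 and 1.60 in Laminectomy mice), and their difference between the surgical groups was not called (adjusted p = 0.252 and 0.248, edgeR).

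*Cx3cl1*, which encodes fractalkine, the ligand of CX3CR1, was at 5.65, 5.92, 4.33 and 4.77 CPM in the No operation group, 5.73, 17.3, 12.3 and 22.3 CPM in the SHAM group and 44.3, 30.3, 27.7 and 25.0 CPM in the Laminectomy group. SHAM mouse 1, lowest in *Cx3cr1* among the mice after surgery, was lowest in its ligand too. The Laminectomy mice were above all SHAM mice, with a log2 fold change of 1.14 ± 0.333 that edgeR did not call (adjusted p = 0.151) and DESeq2 did (adjusted p = 0.028).

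For the lymphocyte receptors, *Cxcl10* rose by 4.50 in SHAM and 4.70 in Laminectomy mice and *Cxcl9* by 1.37 and 1.62, while *Cxcl16*, the ligand of CXCR6, rose by 3.18 and 2.89 on the log2 scale. *Cxcl9* overlapped between SHAM and No operation mice (exact permutation p = 0.114). SHAM mouse 1 was at 1.85 CPM, within the No operation range of 1.79 to 4.98 CPM. *Cxcl12*, the abundant ligand of CXCR4, was called higher in SHAM mice (0.93, adjusted p = 0.00335, edgeR) and not in Laminectomy mice (0.42, adjusted p = 0.12, edgeR), and it was not called between the surgical groups (-0.51, adjusted p = 0.281, edgeR). *Ccl21a*, the lymphatic ligand of CCR7, was the 1 ligand that fell, by 2.04 in SHAM and 1.71 in Laminectomy mice, while *Ccr7* itself was higher. *Ccl19*, the other CCR7 ligand, did not pass the test (1.16 and -0.36).

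*Rarres2* encodes chemerin, the ligand of CCRL2. It was at 61.3, 62.3, 75.4 and 67.2 CPM in the No operation group, 661, 322, 122 and 123 CPM in the SHAM group and 6.04, 24.3, 58.2 and 61.6 CPM in the Laminectomy group. All SHAM mice were above all other mice. The log2 fold change was 2.21 ± 0.68 in SHAM (adjusted p = 0.0146, edgeR) and -0.83 ± 0.658 in Laminectomy mice (adjusted p = 0.298, edgeR). Between Laminectomy and SHAM mice it was -3.03 ± 0.703, which edgeR did not call (adjusted p = 0.111) and DESeq2 did (adjusted p = 0.000391).

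**Figure D5:**
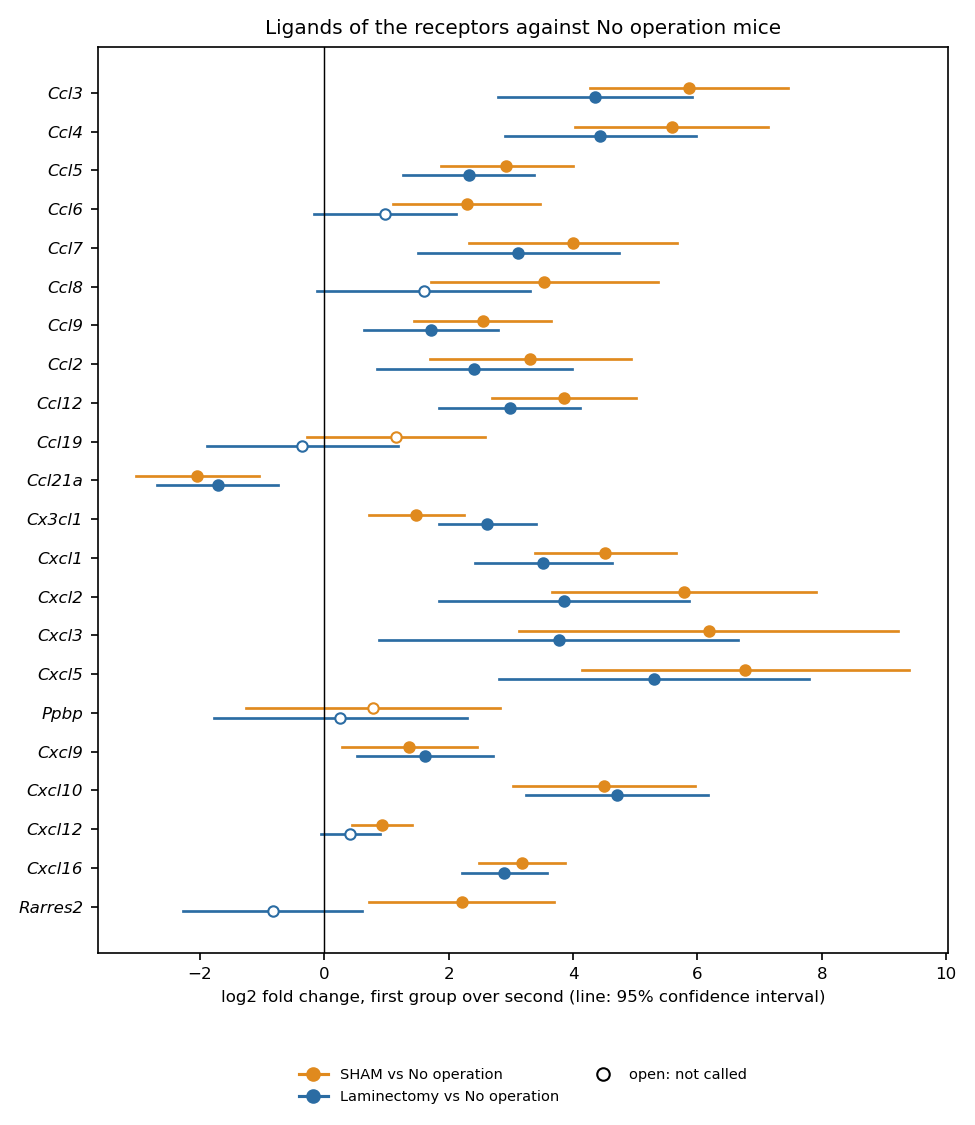
Log2 fold change of 22 ligands of the receptors in SHAM and Laminectomy mice against the same 4 No operation mice, with 95% confidence intervals, filled where called. *Ccl21a* is the only filled point below 0, at -2.04 and -1.71, and *Cxcl5* is the highest, at 6.77 and 5.31.

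The table held 16 other receptors of chemokines and chemerin, and 11 of them passed the filter on low counts. In SHAM mice 2 of the 11 were called higher and 3 lower, and in Laminectomy mice 2 higher and 2 lower, with median log2 fold changes of 0.54 and -0.26. These are counts of few genes and lie near the shares of all genes called each way. Of those called higher in both, *Cxcr1*, a neutrophil receptor of low level, rose by 4.15 and 2.88 on the log2 scale. *Ccr3*, *Ccr9* and *Cxcr5* did not pass the test in either comparison. The counts turn on No operation mouse 2. Without it 6 were called higher and 2 lower in SHAM mice and 5 higher and 2 lower in Laminectomy mice, of 12 tested, with *Ccr3*, *Ccr6* and *Cxcr5* called higher in both. In that fit 26.3% of all genes were called higher and 24.9% lower in SHAM mice, and 25.1% higher and 24.7% lower in Laminectomy mice.

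Apart from *Ccr10*, the decreases lay in receptors that signal atypically or not at all and take chemokines up. *Ackr2*, which clears inflammatory CC chemokines, was at 14.3, 5.73, 11.4 and 8.97 CPM in the No operation group, 1.87 to 3.23 CPM in SHAM and 1.43 to 3.83 CPM in the Laminectomy group, and fell by 2.07 and 1.92 on the log2 scale. *Ackr4*, a scavenger of the CCR7 ligands, fell by 2.70 in SHAM mice and had a log2 fold change of -0.26 in Laminectomy mice. *Ackr3*, a scavenger of CXCL12, fell by 1.64 in Laminectomy mice and had a log2 fold change of 0.35 in SHAM mice. *Ccr10*, which signals in the usual way, was called lower in SHAM mice (-1.0, adjusted p = 0.0461, edgeR), a call that was lost without No operation mouse 2 (-1.07, adjusted p = 0.0554, edgeR) and with DESeq2 (adjusted p = 0.0639).

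*Ackr3* and *Ackr4* did not overlap between the surgical groups, in opposite directions. *Ackr3* was at 172, 115, 82.2 and 81.2 CPM in SHAM and 15.6, 36.4, 31.2 and 30.4 CPM in the Laminectomy group, with a log2 fold change of -1.99 ± 0.32 (adjusted p = 0.0698, edgeR; 3.95e-06, DESeq2). *Ackr4* was at 0.843, 1.23, 2.22 and 1.87 CPM in SHAM and 7.46, 13.2, 9.95 and 3.13 CPM in the Laminectomy group, with 2.44 ± 0.515 (adjusted p = 0.111, edgeR; 0.000392, DESeq2). *Cmklr1*, the signalling receptor for chemerin, was at 47.6 to 63.0, 50.3 to 71.8 and 34.4 to 55.7 CPM in the 3 groups and was not called.

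Of 32 genes that carry the signal of chemokine receptors into the cell, all tested, 22 were called higher and 1 lower in SHAM mice and 20 higher and 1 lower in Laminectomy mice (median log2 fold change 0.82 in both). Over all genes tested the shares were 25.7% higher and 25.1% lower in SHAM mice and 24.2% and 24.4% in Laminectomy mice. The largest increases among the 32 were those of *Rgs1*, which dampens G protein signals of chemokine receptors (2.86 and 3.03), and *Pik3r5*, a regulatory subunit of phosphoinositide 3-kinase gamma (2.82 and 2.26). *Gnai1*, an inhibitory G protein subunit, fell by 1.51 and 1.43 on the log2 scale, while the subunit typical of leukocytes, *Gnai2*, rose by 1.03 and 0.81. Between Laminectomy and SHAM mice none was called by edgeR, with 3 at an unadjusted p below 0.05, and DESeq2 called 1.

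*Cxcr6*, *Ccr1* and *Ccr2* lie together on chromosome 9. All 3 were called higher in both comparisons with No operation mice. *Ccr3*, which lies between *Ccr1* and *Ccr2*, and *Ccr9* nearby were not called (log2 fold change 0.81 and 0.64 in SHAM mice, 0.95 and 0.06 in Laminectomy mice), and *Xcr1* and *Ccr1l1* were too low to be tested. *Fyco1*, an autophagy gene on the opposite strand in which *Cxcr6* lies without sharing exon bases, fell by 2.18 and 2.17, while *Lztfl1* was at 25.8 to 31.4 CPM in all 12 mice. The genes named here thus moved in both directions or were not called.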

How the data were processed

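Bulk RNA of 12 mice was analysed, 4 per group, grouped by the sample labels. The authors prepared stranded poly(A) libraries, aligned reads with STAR 2.6.1b to GRCm38 (mm10) and counted them per gene with featureCounts 2.0.1, per the labels. The deposited values are of the estimated count kind: 10.224% of them, in 2933 of 18996 genes, are not whole numbers, for reasons not given in the sources used here. They were rounded to whole numbers (a change of at most 0.5). Among the 9 receptors only *Ccr2* and *Cxcr2* had such values. No column was left unused. The designs had allowed for whole-number counts.

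Genes were filtered with filterByExpr by group (14765 kept), scaled by TMM (factors 0.849 to 1.13) and fitted together in 12 mice with edgeR 4.0.16 (glmQLFit and glmQLFTest, R 4.3.3). The common dispersion was 0.0799 (a coefficient of variation of 28.3% between mice). DESeq2 1.42.0 was an alternative. The standard error is the log2 fold change over the square root of F. Library totals were 16802988 to 18077863 counts; without molecular tags they speak to counting error alone. Whether the mice were housed or operated together is not given in the sources used here. Replicate pairs differed by more than counting noise (chi-square per gene 21.5 to 118).

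Single receptors were compared by exact permutation of log2 CPM (prior count 2). The step that calls genes was tested on simulated data. The members, the lists of ligands, other receptors, signalling genes and cell markers, and the rules for naming genes were chosen with earlier results of these data known. The rule named the 9 receptors, any ligand or other receptor, the 2 largest changes each way and opposite calls among signalling genes, markers that a result turns on, and the 3 genes with the highest r per receptor. *Cxcl11* and the gene *Trac* had no row in the table used here. Loci, exon lengths and overlaps come from GENCODE M21 on GRCm38, promoter sequences from RefSeq. Genes near the receptors on chromosome 9 were named after their values were seen. A few genes that these rules would name are not reported here.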

Additional observations from a re-analysis of the deposited data

Results flagged for a closer look

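Among the 9 receptors in 3 groups of 4 mice, 27 sets of values were searched for a mouse far from the other 3 of its group, by the gap to the nearest mouse over the whole range (Dixon's test at 95%). It found 3, and chance gives about 1 in 20 sets. *Ccr2* in SHAM mouse 4, at 201 CPM, was far above the other SHAM mice, which lay between 114 and 128 CPM. *Ccrl2* in No operation mouse 3, at 6.73 CPM, was far below the others at 10.3 to 10.7 CPM. *Ccrl2* in SHAM mouse 2, at 7.06 CPM, was far below the others at 16.8 to 16.9 CPM, and the call of *Ccrl2* in SHAM mice turns on this mouse.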

How the results depend on the processing

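The 7 called receptors kept their direction and their call in both comparisons with No operation mice under every setting that tested them, with 1 exception, *Cxcr3* in Laminectomy mice without No operation mouse 3 (log2 fold change 1.06, adjusted p = 0.0502, edgeR). Leaving out 1 mouse at a time, 7 to 9 receptors were called in SHAM and 6 to 8 in Laminectomy mice, 4 to 8 and 4 to 7 other receptors, 19 to 21 and 15 to 18 ligands, 20 to 26 and 17 to 24 signalling genes, and 0 between Laminectomy and SHAM mice. A filter of at least 10 counts in every mouse left 4 receptors to test, of which 3 were called in each comparison with No operation mice; it left 3 calls among other receptors in SHAM mice and 12 and 8 among ligands. A fold limit of 1 left 14 signalling genes in SHAM mice. Between Laminectomy and SHAM mice DESeq2 called 1 receptor, 2 other receptors, 2 ligands and 1 signalling gene. Scaling by library totals moved the median of all genes to 0.25 in SHAM and 0.33 in Laminectomy mice and the share of calls that were higher from 50.6% to 66% and from 49.8% to 69.9%; *Cxcr2* and *Ccrl2* were then called in SHAM mice (2.23 and 0.85). DESeq2 called *Cxcr2* there as well (2.07, adjusted p = 0.049). The sign turned for *Ccr7* between Laminectomy and SHAM mice without SHAM mouse 1 (0.11, with a range of -0.40 to 0.11 over the mice left out) and for *Ccrl2* between Laminectomy and No operation mice without Laminectomy mouse 1 (-0.05, with a range of -0.05 to 0.33), neither called. With the replicate number as a block, 7, 7 and 0 receptors were called; 4, 4 and 0 other receptors, 20, 18 and 0 ligands and 23, 21 and 0 signalling genes. The labels tie the numbers to no shared batch or day; r between the deviations of same-numbered mice ran from -0.23 to 0.35, with 3, 5 and 2 of 8 mice closest to their own number in the 3 comparisons, so pairing was not assumed. *Cxcr6* and *Cxcr3* rest on few counts.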
